A study of Mus musculus with 9 samples.

Results

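The 10 genes described here encode the 5 NF-kB subunits (Rela, Rel, Relb, Nfkb1 and Nfkb2) and 5 inhibitors or modulators of NF-kB (Nfkbia, Nfkbie, Nfkbiz, Bcl3 and Tnfaip3). They were taken by symbol from the 53465 rows of the deposited read count table, where each symbol occurs on 1 row. All 10 passed the filter on low counts that left 11950 genes for testing, which required more than 1 CPM (reads of a gene scaled to library size) in at least 3 of the 9 libraries.

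Bone marrow-derived macrophages (BMDMs) were grown from male wild-type C57BL/6 mice (C57bl6/J in the study's methods) with CSF1 at 50 ng/ml and then either left untreated (UNX) or exposed to medium conditioned by adventitial fibroblasts from the pulmonary arteries of neonatal calves. The fibroblasts came from control calves (CO-CM) or from calves made pulmonary hypertensive by hypoxia (PH-CM), so that mouse cells were exposed to medium from bovine cells. Which component of the medium acted was not tested. Each medium was pooled from several fibroblast populations, which means that replicate libraries do not stand for individual calves. Each group held 3 libraries of polyadenylated RNA, labelled replicates 1, 2 and 3. The labels give an exposure of 16 hours in one place and 24 hours in another, the study's methods give a time between these, and the sources do not say whether CSF1 was present during the exposure or whether the replicates came from separate mice, so that the p-values below measure the spread between these cultures. The comparisons ask which of the 10 genes changed with either medium and which differed between the media.

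The libraries held 62017933 to 84314201 counted reads in UNX, 68317274 to 73049365 in CO-CM and 63493877 to 66935070 in PH-CM. Macrophage markers were abundant in every library, with all 8 of 8 passing the filter and a summed level of 11818 to 12613 CPM in UNX, 19014 to 19970 in CO-CM and 21462 to 23275 in PH-CM. Lyz2 made up most of this sum, with means of 7251 CPM in UNX, 12814 in CO-CM and 15204 in PH-CM. Not all markers followed it. The means of Cd14 were 309, 174 and 831 CPM, and Itgam and Fcgr1 also averaged lower in CO-CM than in UNX, the other markers higher. Fibroblast markers, of which 6 of 7 passed, summed to 197 to 249 CPM in UNX, 267 to 318 in CO-CM and 249 to 335 in PH-CM. Endothelial markers, of which 2 of 4 passed, summed to 33.2 to 44.0, 16.4 to 20.6 and 55.1 to 64.4 CPM in the 3 groups, nearly all of it from Kdr. Neutrophil markers summed to at most 5.05 CPM in any library with Ly6g at 0 in all 9, the mast cell list to at most 3.34 CPM, and the dendritic, T and B cell lists stayed below 1 CPM. The part of these marker differences in the results below was not tested. In bulk RNA, fewer cells of a type and less RNA per cell cannot be told apart.

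NF-kB proteins act as dimers that are held in the cytoplasm by IkB proteins until the IkB kinase (IKK) complex marks the IkB for degradation. Rela and Rel carry transactivation domains and work in the canonical arm with the processed product of Nfkb1, whereas Relb pairs with the processed product of Nfkb2 in the slower non-canonical arm. Several genes of the family are themselves NF-kB targets, so that their RNA forms feedback loops: Nfkbia and Nfkbie encode cytoplasmic inhibitors, Nfkbiz and Bcl3 encode nuclear IkB proteins that act on gene transcription, and Tnfaip3 encodes A20, an enzyme that edits ubiquitin chains upstream of IKK. In macrophages the family is best known for controlling cytokine and chemokine genes.

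RefSeq promoter windows on GRCm38.p6, from 250 bases before to 50 bases after a transcription start, were given for 7 of the 10 genes. Nfkb1, Relb and Nfkbiz had no entry. The windows were searched on both strands for the decameric kappaB consensus. At least 1 match was found for 6 of the 7 genes, all but Rela, against 5.14% of the 27025 genes with such a window and 4.51% of the 32851 windows. The stretches given here are those of Bcl3, which rose most, Nfkb2 and Nfkbia, a subunit and an inhibitor that rose, Tnfaip3, which fell, and Rela, which had no match. Rel and Nfkbie also had a match. The stretches cover the 150 bases before the start, except for Bcl3, where the match lies just after the start and 15 bases on each side of the start are given. Where a gene has several starts, as Nfkb2 and Tnfaip3 do, the first window listed is given. The other Tnfaip3 window had no match. Capitals mark the matches.

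Bcl3 (chr7:19822741-19822770, minus strand): agttcagtcggcggcagGGGAAGTCCCgct

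Nfkb2 (chr19:46304587-46304736, plus strand): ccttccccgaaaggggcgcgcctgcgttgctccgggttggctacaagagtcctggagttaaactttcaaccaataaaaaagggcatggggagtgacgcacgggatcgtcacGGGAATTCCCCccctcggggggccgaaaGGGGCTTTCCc

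Nfkbia (chr12:55492648-55492797, minus strand): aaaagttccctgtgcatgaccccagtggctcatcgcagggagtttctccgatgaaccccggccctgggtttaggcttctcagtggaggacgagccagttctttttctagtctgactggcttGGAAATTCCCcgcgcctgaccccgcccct

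Tnfaip3 (chr10:19015411-19015560, minus strand): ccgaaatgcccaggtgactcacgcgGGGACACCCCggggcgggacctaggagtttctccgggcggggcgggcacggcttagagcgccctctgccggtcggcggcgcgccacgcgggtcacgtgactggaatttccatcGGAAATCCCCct

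Rela (chr19:5637391-5637540, plus strand): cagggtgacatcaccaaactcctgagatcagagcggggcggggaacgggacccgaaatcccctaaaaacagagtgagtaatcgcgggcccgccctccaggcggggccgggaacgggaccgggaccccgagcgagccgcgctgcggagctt

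Counted from the transcription start, the capitals begin at base 3 in Bcl3, at bases -39 and -11 in Nfkb2, at base -29 in Nfkbia and at bases -125 and -12 in Tnfaip3. Genes whose RNA was higher in conditioned medium (Bcl3, Nfkb2, Nfkbia) and the gene whose RNA was lower in PH-CM (Tnfaip3) thus both had a match in this window, and Rela, which was also higher, had none. A match describes the sequence and is not a measurement of binding.

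Levels below are given as CPM after TMM normalization, a scaling that evens out library composition, and compared between groups within a gene. A gene was called when edgeR's quasi-likelihood test over all 9 libraries gave a false discovery rate (FDR, a p-value adjusted over the 11950 genes) of at most 0.05 and the fold change was at least 1.2.

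Against UNX, PH-CM raised 8 of the 10 genes (Bcl3, Relb, Nfkbiz, Nfkbie, Nfkb2, Nfkbia, Rel and Rela) and lowered 1 (Tnfaip3). Of all genes tested, 31.3% were called higher and 31.7% lower in the same comparison, 63.0% in either direction. The median log2 fold change of the 10 genes was 0.79, compared with 0.01 over all genes. CO-CM raised the same 8 genes and lowered none (0 also at an unadjusted p under 0.05, and 0 with edgeR's exact test and with DESeq2), where 28.0% of all genes were called higher and 28.9% lower (57.0% in either direction), and the median of the 10 was 0.48 compared with 0.00. These comparisons share their UNX libraries. Between the media themselves, 4 genes were higher in PH-CM (Bcl3, Nfkbie, Nfkbiz and Nfkb2) and Tnfaip3 was lower, against 12.2% and 15.0% of all genes (27.1% in either direction). The median of the 10 was 0.28, compared with -0.01 over all genes.

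**Figure D1:**
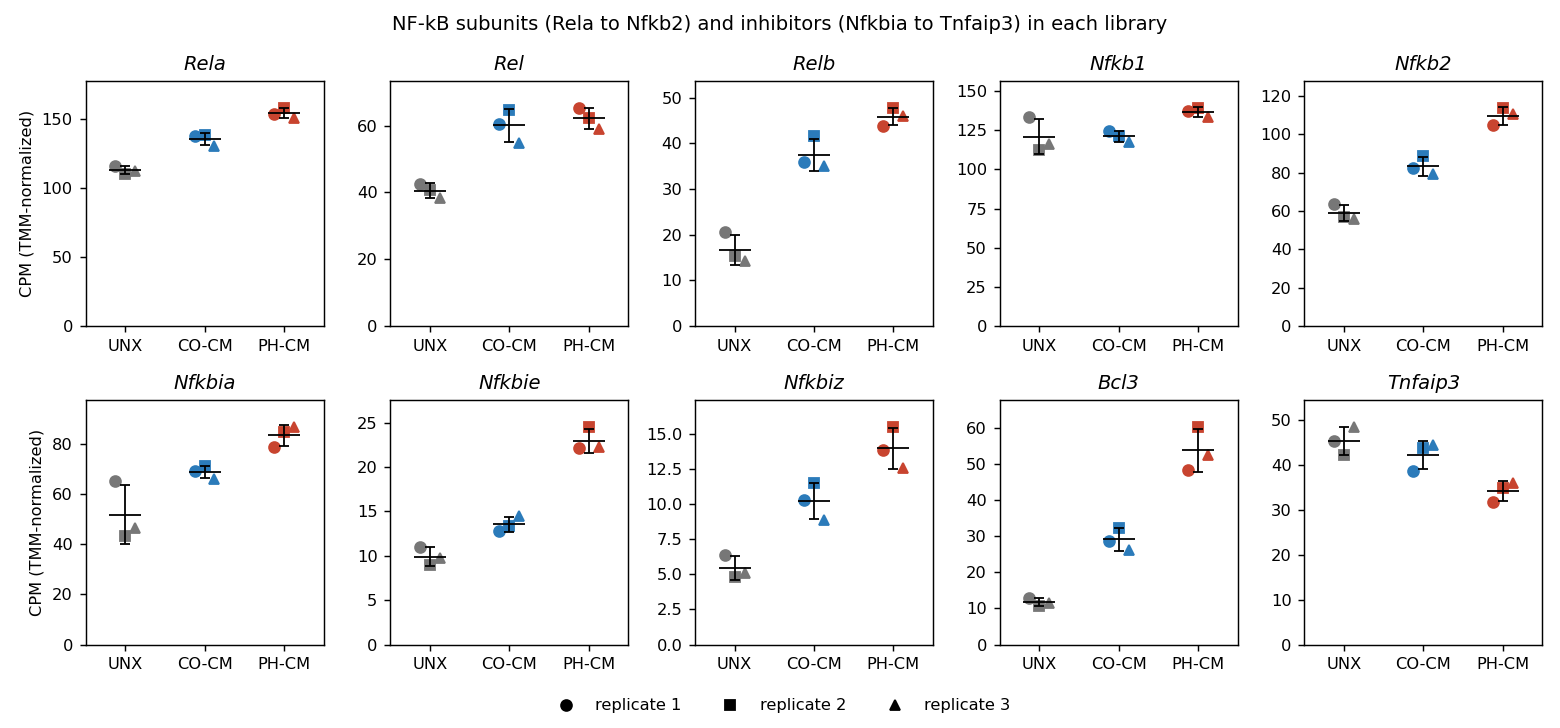
CPM after TMM normalization (y axes, each from 0) of the 10 genes in each library, with UNX in grey, CO-CM in blue and PH-CM in red, a marker shape for each replicate number, and the group mean with its SD (n = 3) in black. Bcl3 rose from 10.8 to 13.0 CPM in the UNX libraries to 48.4 to 60.3 in PH-CM, while Tnfaip3 fell to 31.8 to 36.0 CPM in PH-CM.

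Rela (chr19:5637483-5648130, plus strand, GRCm38 with GENCODE M21), the main transactivating subunit, rose in both media. It measured 116, 111 and 112 CPM in UNX replicates 1 to 3, 138, 139 and 131 in CO-CM, and 154, 158 and 151 in PH-CM. The 3 groups did not overlap and stood in the order UNX, CO-CM, PH-CM. The log2 fold change was 0.45 ± 0.04 (SE) for PH-CM against UNX (edgeR FDR 4.22e-06). For CO-CM against UNX it was 0.26 ± 0.04 (edgeR FDR 0.000264), a fold that sits at the threshold of 1.2 and fell under it in 9 of 19 alternatives, the replicate block among them (0.26, edgeR FDR 3.16e-05), with an FDR under 0.05 in each. PH-CM and CO-CM differed by 0.18 ± 0.04 (edgeR FDR 0.00618), under the fold of 1.2 and therefore not called.

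Rel (chr11:23736847-23770970, minus strand), the c-Rel subunit of immune cells, rose in both media. UNX libraries held 42.6, 40.8 and 38.2 CPM, CO-CM libraries 60.6, 64.8 and 54.8, and PH-CM libraries 65.2, 62.2 and 59.1. Every conditioned library was above every UNX library, while the ranges of the 2 media overlapped. The log2 fold changes were 0.62 ± 0.07 for PH-CM and 0.57 ± 0.07 for CO-CM against UNX (edgeR FDR 1.56e-05 and 3.71e-05). The difference between the media was 0.05 with a 95% interval of -0.10 to 0.20 (edgeR FDR 0.612).

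Relb (chr7:19606217-19629438, minus strand), the subunit of the non-canonical arm, had the greatest rise among the 5 subunits in both media. It measured 20.5, 15.4 and 14.3 CPM in UNX, 36.0, 41.5 and 34.9 in CO-CM, and 43.8, 47.7 and 45.9 in PH-CM. None of the 3 groups overlapped, and UNX replicate 1 lay above the other UNX libraries. Log2 fold changes against UNX were 1.46 ± 0.12 in PH-CM (2.75-fold, edgeR FDR 1.66e-06) and 1.17 ± 0.12 in CO-CM (2.25-fold, edgeR FDR 1.16e-05). PH-CM exceeded CO-CM by 0.29 ± 0.12, which was not called (edgeR FDR 0.0794). It was called in 4 of 19 alternatives. These were a replicate block (0.29, edgeR FDR 0.0319), UNX replicate 1 left out (0.29, edgeR FDR 0.00905), no filter (0.28, edgeR FDR 0.0159) and the 2 media fitted alone (0.30, edgeR FDR 0.011).

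Nfkb1 (chr3:135584655-135691547, minus strand), whose product is processed to the DNA-binding partner of Rela, was the subunit that moved least against UNX. The libraries held 133, 113 and 116 CPM in UNX, 124, 121 and 118 in CO-CM, and 137, 139 and 133 in PH-CM. UNX replicate 1 reached the PH-CM range, and the UNX and CO-CM libraries overlapped. For PH-CM against UNX the log2 fold change was 0.18 ± 0.06 (edgeR FDR 0.0218), a fold of 1.13 that did not reach the threshold. CO-CM differed from UNX by 0.00 with a 95% interval of -0.13 to 0.14 (edgeR FDR 0.965), and PH-CM from CO-CM by 0.17 ± 0.06 (edgeR FDR 0.0454), also under the fold threshold.

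Nfkb2 (chr19:46304320-46312385, plus strand), which encodes the precursor processed in the non-canonical arm, rose stepwise. It measured 63.7, 56.9 and 56.0 CPM in UNX, 82.3, 88.9 and 79.3 in CO-CM, and 105, 114 and 111 in PH-CM. The groups were fully separated. Against UNX the log2 fold change was 0.90 ± 0.06 in PH-CM (1.86-fold, edgeR FDR 4.67e-07) and 0.50 ± 0.06 in CO-CM (1.42-fold, edgeR FDR 4.49e-05). Between the media it was 0.39 ± 0.06 (edgeR FDR 0.000744). Its exons share 299 bases with Psd on the opposite strand, and the counting used no strand, so that reads from this stretch cannot be assigned to one gene. They also share 531 bases with AC114539.1, a long non-coding RNA on the opposite strand that was not analysed here. Psd held 6683 reads over the 9 libraries and Nfkb2 51551.

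**Figure D2:**
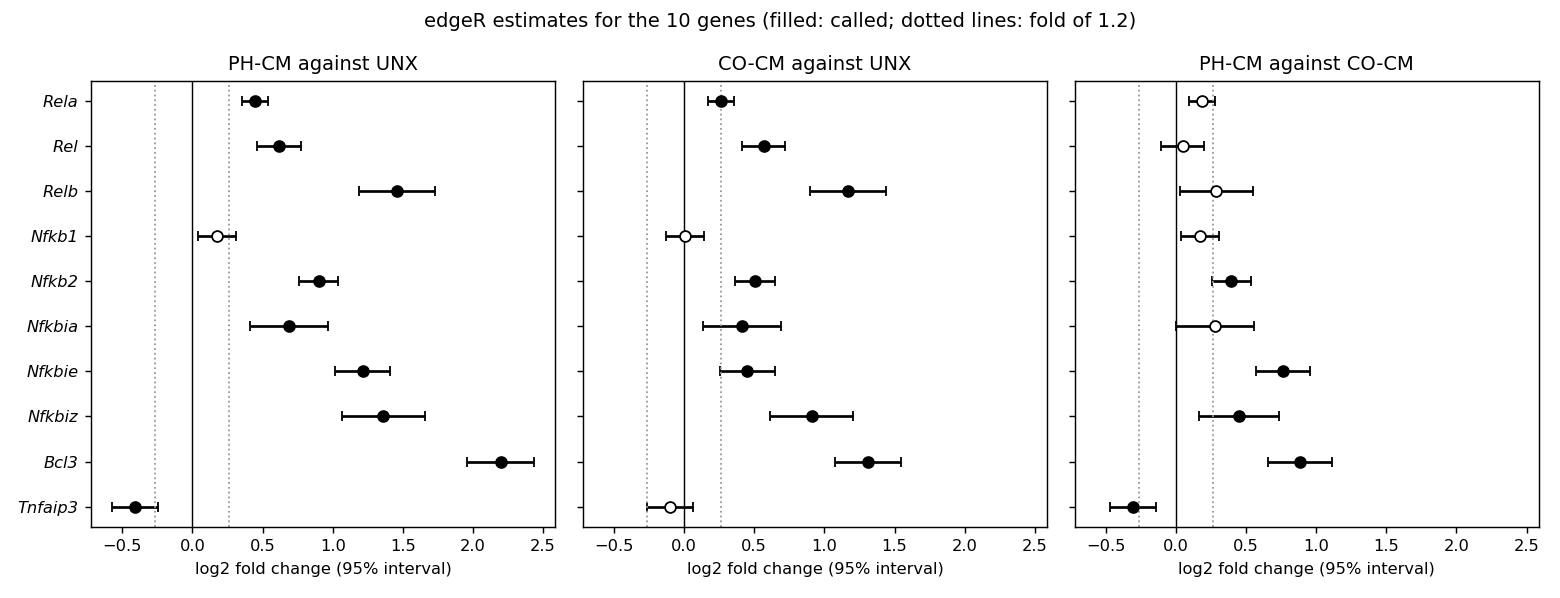
Log2 fold change (x axis) with its 95% interval for each of the 10 genes (rows) in the 3 comparisons (panels), with filled points for called genes and dotted lines at a fold of 1.2. Against UNX, Bcl3 lies farthest to the right at 2.20 in PH-CM and 1.31 in CO-CM, and Tnfaip3 is the gene to the left of 0 in all 3 panels, with the CO-CM interval of -0.27 to 0.06 crossing it.

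Among the cytoplasmic inhibitors, Nfkbia (chr12:55489410-55492647, minus strand) encodes IkB-alpha, the rapid feedback inhibitor of the canonical arm. It measured 65.4, 43.3 and 46.7 CPM in UNX, 69.2, 71.1 and 66.2 in CO-CM, and 78.7, 84.7 and 86.8 in PH-CM. The groups did not overlap, although UNX replicate 1 lay next to the CO-CM libraries and the UNX group had a coefficient of variation of 22.9%, the widest of the 10 genes in any group. The log2 fold change was 0.69 ± 0.13 in PH-CM (edgeR FDR 0.000532) and 0.41 ± 0.13 in CO-CM (edgeR FDR 0.0134) against UNX. Compared within replicate numbers, PH-CM exceeded UNX by 0.27, 0.97 and 0.90 and CO-CM by 0.08, 0.71 and 0.50 on the log2 scale.

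The Nfkbia call in CO-CM rested on the UNX libraries. It was lost without UNX replicate 2 (0.28, edgeR FDR 0.0587) or without UNX replicate 3 (0.32, edgeR FDR 0.0673), and without UNX replicate 1 it stood at 0.60 (edgeR FDR 1.71e-05). PH-CM and CO-CM differed by 0.28 ± 0.12 (edgeR FDR 0.107). That difference was called in 3 of 19 alternatives. These were UNX replicate 1 left out (0.28, edgeR FDR 0.00224), the 2 media fitted alone (0.28, edgeR FDR 0.00308) and no filter (0.27, edgeR FDR 0.0171).

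Nfkbie (chr17:45555703-45563169, plus strand), which encodes IkB-epsilon, an inhibitor induced with a delay, separated the media more clearly than Nfkbia. UNX libraries held 11.0, 8.96 and 9.74 CPM, CO-CM libraries 12.8, 13.4 and 14.4, and PH-CM libraries 22.1, 24.5 and 22.2. All PH-CM libraries exceeded all CO-CM libraries, which in turn exceeded all UNX libraries. The log2 fold change was 1.21 ± 0.09 for PH-CM against UNX (2.32-fold, edgeR FDR 5.38e-07) and 0.45 ± 0.09 for CO-CM against UNX (1.37-fold, edgeR FDR 0.000957). The media differed by 0.76 ± 0.09 (1.70-fold, edgeR FDR 7.87e-05).

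Of the nuclear IkB genes, Bcl3 (chr7:19808462-19822770, minus strand), a coactivator or corepressor that binds dimers of the processed Nfkb1 and Nfkb2 products, had the largest change of the 10. It measured 13.0, 10.8 and 11.4 CPM in UNX, 28.7, 32.3 and 26.2 in CO-CM, and 48.4, 60.3 and 52.6 in PH-CM. There was no overlap between any groups. Against UNX it rose 4.59-fold in PH-CM (log2 2.20 ± 0.11, edgeR FDR 3.12e-08) and 2.48-fold in CO-CM (log2 1.31 ± 0.11, edgeR FDR 1.87e-06). PH-CM exceeded CO-CM 1.85-fold (log2 0.89 ± 0.10, edgeR FDR 9.03e-05). The antisense gene Gm16175 shares 161 exonic bases with Bcl3 but held 24 reads in all 9 libraries, against 18950 for Bcl3.

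Nfkbiz (chr16:55811375-55838899, minus strand), which encodes IkB-zeta, a cofactor for secondary response genes such as Lcn2, was the least abundant of the 10. The libraries held 6.40, 4.84 and 5.12 CPM in UNX, 10.3, 11.5 and 8.90 in CO-CM, and 13.9, 15.5 and 12.6 in PH-CM. Again the groups were separate. Log2 fold changes against UNX were 1.36 ± 0.13 in PH-CM (edgeR FDR 5.33e-06) and 0.91 ± 0.13 in CO-CM (edgeR FDR 0.000132). The difference between the media, 0.45 ± 0.13 (edgeR FDR 0.019), was lost without CO-CM replicate 3 (0.36, edgeR FDR 0.0758) or PH-CM replicate 2 (0.37, edgeR FDR 0.0779).

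Tnfaip3 (chr10:19000910-19015657, minus strand), the A20 gene, went the other way. It measured 45.4, 42.4 and 48.6 CPM in UNX, 38.7, 43.7 and 44.5 in CO-CM, and 31.8, 34.9 and 36.0 in PH-CM. Each PH-CM library was below every UNX and CO-CM library, whereas UNX and CO-CM overlapped. PH-CM lowered it by 24.6% against UNX, a log2 fold change of -0.41 ± 0.07 (edgeR FDR 0.000504). The difference between PH-CM and CO-CM was -0.31 ± 0.07 (edgeR FDR 0.00833), and without PH-CM replicate 1 it fell under the fold threshold (-0.25, edgeR FDR 0.0418). CO-CM against UNX gave -0.10 with a 95% interval of -0.27 to 0.06 (edgeR FDR 0.234).

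Without regard to the test, all 3 PH-CM libraries lay above all 3 UNX libraries for 8 of the 10 genes and below them for 1, where 38.9% and 38.8% of all genes did so. The same counts for CO-CM against UNX were 8 and 0 (35.4% and 36.7% of all genes), and for PH-CM against CO-CM 8 and 1 (23.9% and 26.3%). UNX replicate 1 was the highest UNX library for 9 of the 10 genes, Tnfaip3 being the exception. Leaving it out kept the counts against UNX at 8 higher and 1 lower for PH-CM and 8 and 0 for CO-CM, and moved those between the media from 4 to 6 higher with 1 lower, by the addition of Relb and Nfkbia.

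Levels of different genes can be set side by side only per length, for which the deposited RPKM values (reads scaled by exon length and library size) were used. In UNX the order was Rela (42.8 ± 1.71 RPKM, mean ± SD, n = 3), Nfkbia (33.1 ± 8.10), Nfkb2 (18.4 ± 1.58), Nfkb1 (10.3 ± 1.10), Tnfaip3 (6.46 ± 0.44), Rel (5.59 ± 0.38), Bcl3 (4.88 ± 0.54), Relb (4.43 ± 0.95), Nfkbie (4.21 ± 0.50) and Nfkbiz (1.12 ± 0.19). Rela and Nfkbia overlapped between libraries, as did each neighbouring pair from Rel to Nfkbie. In CO-CM, Bcl3 (11.5 ± 1.15 RPKM) moved up the order, ahead of Nfkb1 (9.84 ± 0.42) and Relb (9.45 ± 0.79), which overlapped. In PH-CM, Bcl3 stood at 21.4 ± 2.15 RPKM, still behind Nfkb2 (33.0 ± 0.92), and Tnfaip3 (4.68 ± 0.24) came ahead of Nfkbiz (2.75 ± 0.28) alone.

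The exon lengths behind the deposited RPKM values were shorter than the merged exons of GENCODE M21 for Nfkb2 (3289 against 4584 bases), Rela (2716 against 3072) and Nfkbie (2422 against 3045), and equal for the other 7 genes. With the longer lengths, Rela stood at 37.9 RPKM in UNX and 49.6 in PH-CM, where Nfkbia at 51.2 came first with overlapping libraries, and Nfkb2 at 23.7 in PH-CM lay within the range of the Bcl3 libraries. The order of these genes therefore depends on the exon length used. Dividing by another length leaves differences between groups within a gene unchanged. Reads were not recounted on another gene model, so its effect on the counts was not tested.

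The RPKM of the 5 subunit genes summed to 78.3 to 88.1 in the UNX libraries, 95.7 to 104 in CO-CM and 118 to 122 in PH-CM, with no overlap, on the exon lengths behind the deposited values. Rela made up 52.6% ± 1.54 (SD, n = 3) of this sum in UNX, 48.5% ± 0.90 in CO-CM and 46.7% ± 0.50 in PH-CM. The share of Relb went from 5.40% ± 0.77 in UNX to 9.35% ± 0.53 in CO-CM and 9.70% ± 0.25 in PH-CM. Nfkb2 went from 22.6% ± 0.40 to 24.6% ± 0.50 and 27.4% ± 0.79, and Nfkb1 from 12.6% ± 0.49 to 9.75% ± 0.35 and 9.32% ± 0.16. Rel held 6.85% in both UNX and PH-CM and 7.80% ± 0.31 in CO-CM. The RNA of the 2 non-canonical subunits thus took a larger part of the sum in either medium than in UNX, and that of Rela and Nfkb1 a smaller one.

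**Figure D3:**
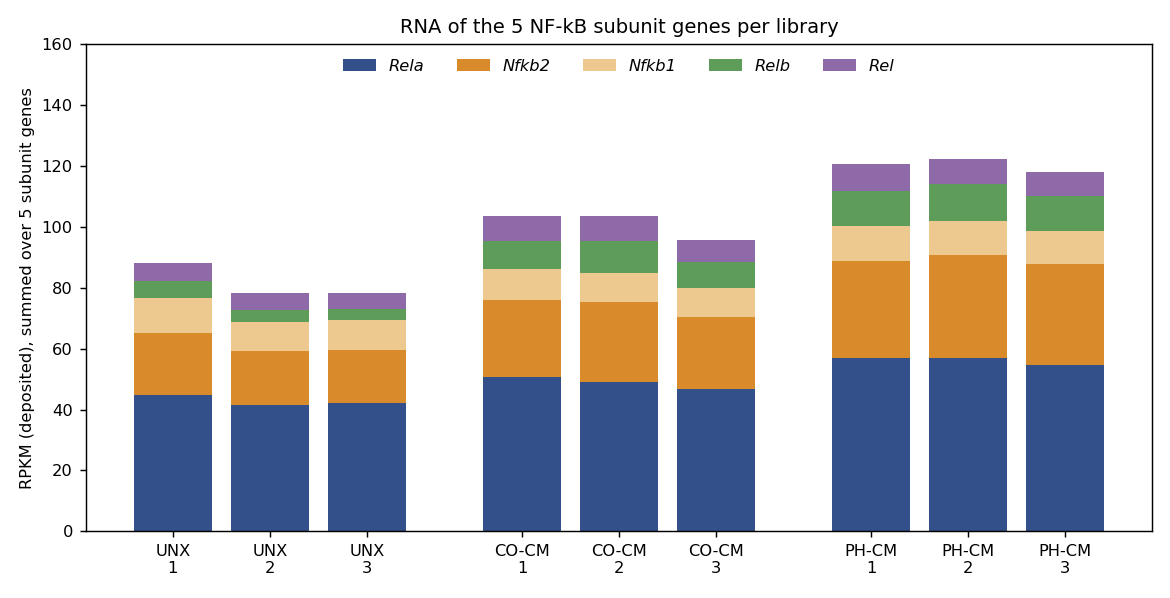
Deposited RPKM (y axis, from 0) of the 5 subunit genes stacked for each of the 9 libraries, with a colour for each gene. The total rises from 78.3 to 88.1 in UNX to 118 to 122 in PH-CM, and the Relb and Nfkb2 segments take a larger part of it.

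Ratios between members within a library do not change with the scaling between libraries, and 4 of them were compared in 3 contrasts each (12 two-sided exact permutation tests). With 3 libraries against 3 the smallest p these can give is 0.1, so that none could pass 0.05 before or after Benjamini-Hochberg adjustment. Tests at this smallest exact permutation p of 0.1 had an adjusted p of 0.171 here. The log2 ratio of Relb to Rela was -3.02, -3.36 and -3.49 in UNX, -2.45, -2.25 and -2.42 in CO-CM, and -2.33, -2.24 and -2.23 in PH-CM. It was thus higher than UNX in every conditioned library, by 1.02 in PH-CM and 0.92 in CO-CM on average (exact permutation p = 0.1 for each, adjusted 0.171), while the media overlapped (difference 0.11, exact permutation p = 0.2, adjusted 0.24).

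For Nfkb2 to Nfkb1 the log2 ratio was 0.81, 0.89 and 0.82 in UNX, 1.28, 1.43 and 1.30 in CO-CM, and 1.48, 1.58 and 1.61 in PH-CM. The 3 groups were separate, with differences of 0.72 for PH-CM and 0.50 for CO-CM against UNX and 0.22 between the media (exact permutation p = 0.1 for each, adjusted 0.171). Rel to Rela was higher than UNX by 0.17 in PH-CM and 0.30 in CO-CM without overlap (exact permutation p = 0.1, adjusted 0.171), and changed by -0.13 from CO-CM to PH-CM with overlap (exact permutation p = 0.2, adjusted 0.24). Nfkbia to Rela, the inhibitor to its main target, overlapped between all groups, with differences of 0.26 for PH-CM (exact permutation p = 0.3, adjusted 0.327) and 0.17 for CO-CM (exact permutation p = 0.4, adjusted 0.4) against UNX and 0.09 between the media (exact permutation p = 0.2, adjusted 0.24). Compared within replicate numbers, the difference of PH-CM from CO-CM was -0.05, -0.25 and -0.10 for Rel to Rela, 0.13, 0.01 and 0.19 for Relb to Rela, and 0.03, 0.06 and 0.18 for Nfkbia to Rela, where an exact sign-flip permutation test over 3 pairs gave p = 0.25 for each, the smallest it can give. Against UNX, the differences of Nfkbia to Rela within replicate numbers were -0.14, 0.45 and 0.47 for PH-CM and -0.16, 0.39 and 0.29 for CO-CM (exact sign-flip permutation p = 0.5 for each), with replicate 1 opposite in sign to the other two. UNX replicate 1 stood at -0.08 on the ratio of Nfkbia to Rela and the other UNX libraries at -0.60 and -0.51.

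**Figure D4:**
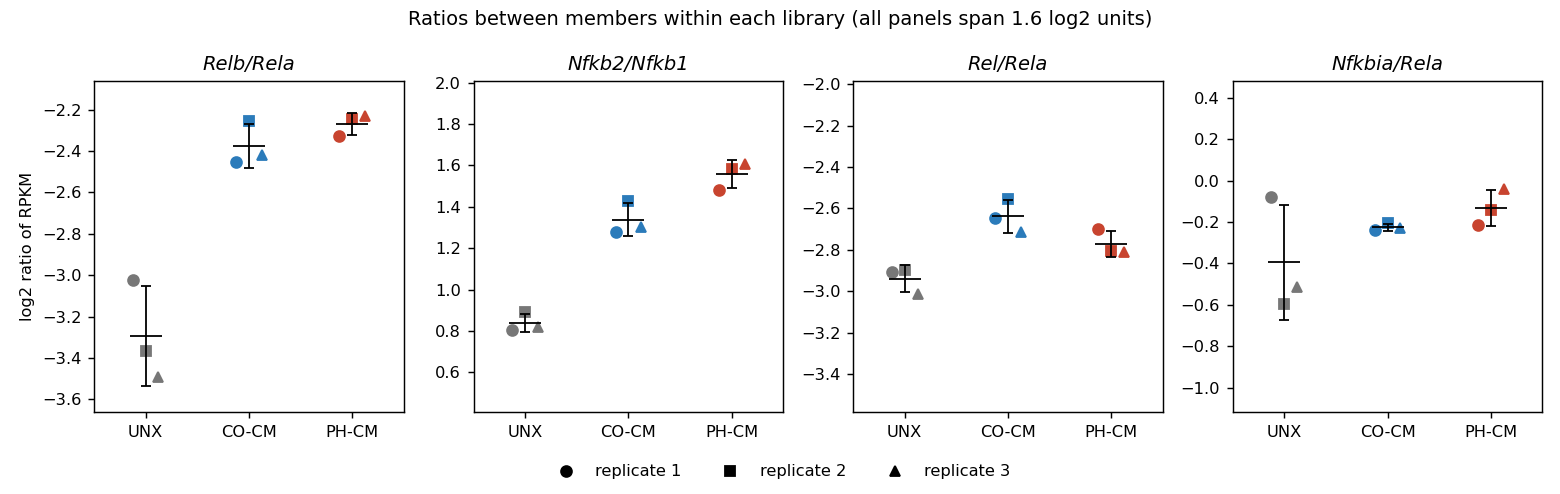
Log2 ratio of deposited RPKM (y axes, all spanning 1.6 log2 units) between 4 pairs of members in each library, with marker shapes for replicate numbers and the group mean with its SD (n = 3) in black. Relb/Rela and Nfkb2/Nfkb1 are higher in all 6 conditioned libraries than in UNX, whereas Nfkbia/Rela overlaps between the groups.

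The rest of the pathway was described from 6 lists, put together with earlier results of these data known. Counts are to be read against the shares of all genes called higher and lower, which were 31.3% and 31.7% in PH-CM against UNX, 28.0% and 28.9% in CO-CM against UNX, and 12.2% and 15.0% between the media, so that a list with calls in both directions is no result about that list. Among the other IkB genes (Nfkbib, Nfkbid, Nfkbil1), 1 of 3 was called, Nfkbil1, higher in PH-CM (log2 0.45 ± 0.08, edgeR FDR 0.000359) and in CO-CM (0.42 ± 0.08, edgeR FDR 0.00066). Nfkbid, which encodes a nuclear IkB protein like Bcl3 and Nfkbiz and was chosen for mention after its values were seen, measured 14.4 ± 2.19 CPM in UNX, 12.3 ± 0.83 in CO-CM and 14.7 ± 0.52 in PH-CM and was not called. In CO-CM against UNX (log2 -0.22 ± 0.10, edgeR FDR 0.0721) it was called lower in 4 of 19 alternatives, and in PH-CM against CO-CM (0.26 ± 0.10, edgeR FDR 0.0692) higher in 2.

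Of 7 genes of the IKK complex and its relatives, 4 were higher and none lower in PH-CM against UNX, 3 higher and 1 lower in CO-CM, and 2 higher in PH-CM against CO-CM. Ikbkg, the regulatory subunit NEMO, rose by 0.54 ± 0.07 in PH-CM and 0.43 in CO-CM (edgeR FDR 3e-05 and 0.000188), and Ikbke, a kinase related to the IKKs, by 0.54 ± 0.10 in PH-CM and 0.52 ± 0.10 in CO-CM (edgeR FDR 0.000704 and 0.00106). Tank, an adaptor of the IKK-related kinases, fell by 0.48 in CO-CM (edgeR FDR 8.49e-06), stood at 0.06 in PH-CM against UNX (edgeR FDR 0.294) and was higher in PH-CM than in CO-CM by 0.54 ± 0.05 (edgeR FDR 1.63e-05). Azi2, another such adaptor, was higher in PH-CM than in CO-CM by 0.39 ± 0.05 (edgeR FDR 0.000113).

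In the non-canonical arm, 3 of 9 genes were higher and 2 lower in either medium against UNX, and 1 higher and 1 lower between the media. Cd40, a receptor that feeds this arm, measured 11.2 ± 0.82 CPM in UNX, 3.81 ± 0.67 in CO-CM and 1.23 ± 0.21 in PH-CM. Its log2 fold change was -3.19 in PH-CM and -1.56 in CO-CM against UNX (edgeR FDR 4.72e-08 and 5.5e-06), and it differed between the media by -1.63 ± 0.17 (edgeR FDR 4.16e-05). Tnfrsf1b, the second TNF receptor, rose from 191 ± 23.2 CPM to 770 ± 68.3 in CO-CM and 716 ± 10.1 in PH-CM (log2 2.01 and 1.90, edgeR FDR 3.58e-08 and 2.73e-08). Birc3, a ubiquitin ligase of the TRAF complex and a known NF-kB target, rose by 1.52 in PH-CM and 1.00 in CO-CM against UNX (edgeR FDR 2.87e-07 and 8.53e-06) and was higher in PH-CM than in CO-CM by 0.52 ± 0.10 (edgeR FDR 0.00206). Map3k14, which encodes the kinase NIK that drives Nfkb2 processing and was chosen for mention after its values were seen, was at 15.3 ± 1.52, 17.7 ± 3.89 and 19.5 ± 2.60 CPM in UNX, CO-CM and PH-CM. In PH-CM against UNX it was not called (log2 0.34 ± 0.15, edgeR FDR 0.063) but was called in 10 of 19 alternatives, the replicate block among them (0.34, edgeR FDR 0.00662). In CO-CM against UNX it was called without CO-CM replicate 3 alone (0.36, edgeR FDR 0.0272), and between the media in none.

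Receptor-proximal adaptors and kinases numbered 19, of which 7 were higher and none lower in PH-CM against UNX, 4 higher and none lower in CO-CM, and 4 higher and 2 lower between the media. In PH-CM against UNX, Rbck1 was called lower in 5 of 19 alternatives, among them library size alone, no filter and without UNX replicate 1. In CO-CM against UNX, 2 genes were lower with library size alone as the scaling. Of these, Map3k7 was also lower with no filter. Without PH-CM replicate 2 only 2 were higher between the media. Irak2, a kinase of the Toll-like receptor complex, rose by 0.81 ± 0.05 in PH-CM and 1.22 ± 0.05 in CO-CM (edgeR FDR 1.08e-07 and 1.23e-08), and the difference from CO-CM to PH-CM was -0.42 ± 0.05 (edgeR FDR 6.4e-05). Map3k8, a kinase held by the Nfkb1 precursor, rose by 0.86 ± 0.11 and 1.10 ± 0.10 (edgeR FDR 2.99e-05 and 5.95e-06). Traf1, an adaptor and NF-kB target, was higher in PH-CM than in CO-CM by 0.48 ± 0.13 (edgeR FDR 0.0169), a call lost without CO-CM replicate 1 or PH-CM replicate 2 (highest edgeR FDR 0.0714).

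Of 16 other negative regulators, 8 were higher and 4 lower in PH-CM against UNX, 6 and 2 in CO-CM, and 4 and 4 between the media. Zc3h12a, the RNase Regnase-1 that degrades cytokine mRNA, rose by 1.74 ± 0.09 in PH-CM and 1.33 ± 0.09 in CO-CM (edgeR FDR 5.04e-08 and 5.17e-07). Tnip3, a partner of A20, fell by 1.53 in PH-CM and by 0.72 in CO-CM against UNX (edgeR FDR 0.000101 and 0.0118) and was lower in PH-CM than in CO-CM (-0.81 ± 0.22, edgeR FDR 0.0154), a call lost without CO-CM replicate 2, CO-CM replicate 3 or PH-CM replicate 1 (highest edgeR FDR 0.0614). Usp18, a deubiquitinase best known from interferon signaling, fell by 1.36 in CO-CM and by 0.67 in PH-CM against UNX (edgeR FDR 4.32e-05 and 0.00387) and was higher in PH-CM than in CO-CM by 0.69 ± 0.17 (edgeR FDR 0.00942).

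Of 34 genes taken as NF-kB targets, 28 passed the filter, and the 6 that did not were Il6, Il12b, Ccl5, Nos2, Csf2 and Lcn2. Of these 28, 7 would have failed it without the libraries of 1 group, so that the filter itself favoured a difference (Il1a, Il1b, Cxcl1, Cxcl3, Vcam1 and Saa3 without PH-CM, and Cxcl10 without UNX), and they were left out of the counts. Of the other 21 genes, 11 were higher and 8 lower in PH-CM against UNX (median log2 fold change 0.58), 5 and 9 in CO-CM (median -0.20), and 8 and 4 between the media (median 0.22). With the replicate block the last counts were 9 and 6. Il1b, an inflammatory cytokine, measured 0.15 ± 0.05 CPM in UNX, 1.04 ± 0.76 in CO-CM and 9.78 ± 2.64 in PH-CM. Cxcl3, a neutrophil chemokine, held 40 reads over the UNX libraries, 18 over the CO-CM libraries and 369 over the PH-CM libraries. Both are given as levels, without a test. Of the 21 genes, Ptgs2 and Ier3 had the largest called differences between the media and were chosen for mention after their values were seen. Ptgs2 was higher in PH-CM than in CO-CM by 3.04 ± 0.30 and Ier3 by 2.43 ± 0.12 on the log2 scale (edgeR FDR 3.13e-05 and 2.62e-07).

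The monocyte chemokine genes Ccl7 and Ccl2 fell with either medium. Ccl7 measured 128 ± 18.5 CPM in UNX, 1.72 ± 0.70 in CO-CM and 2.26 ± 0.24 in PH-CM, a log2 fold change of -6.21 in CO-CM and -5.82 in PH-CM (edgeR FDR 7.89e-09 and 3.76e-09). Ccl2 measured 384 ± 48.8 CPM in UNX, 8.19 ± 3.70 in CO-CM and 10.3 ± 1.88 in PH-CM, a log2 fold change of -5.55 in CO-CM and -5.22 in PH-CM (edgeR FDR 6.85e-08 and 5.49e-08).

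**Figure D5:**
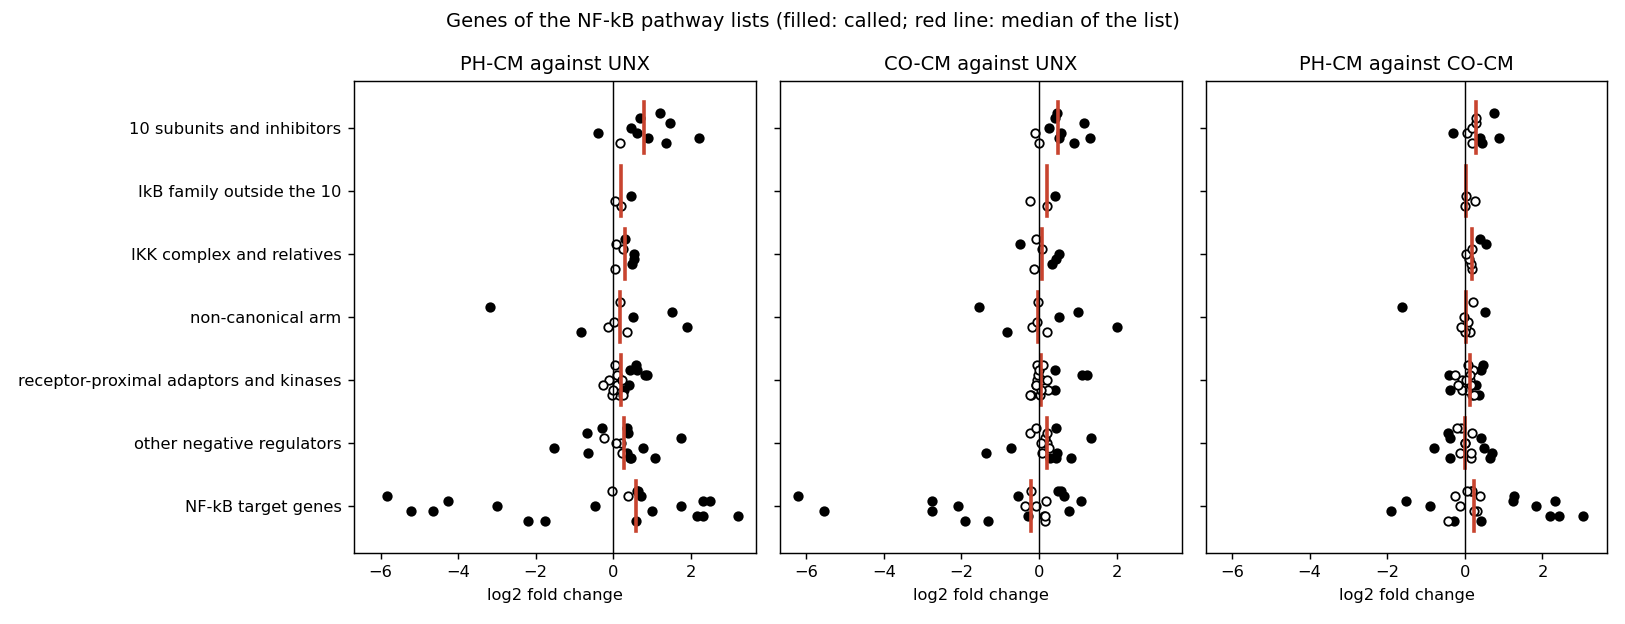
Log2 fold change (x axes) of each tested gene of the 10 subunits and inhibitors and of 6 other NF-kB pathway lists (rows) in the 3 comparisons (panels), with filled points for called genes, open points for the others and a red line at each list's median. The NF-kB target genes spread widest, from -5.82 to 3.20 in PH-CM against UNX, with a median of 0.58, compared with -0.20 in CO-CM against UNX. The 7 genes that would have failed the filter without the libraries of 1 group are not drawn.

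Over the 9 libraries, the genes whose TMM log2 CPM was most like that of each member are given as a description, since the libraries share 3 conditions and many genes separate them. Bcl3 and Nfkb2 were highly alike (Pearson r = 0.996), and Rela and Bcl3 nearly so (r = 0.995). Bcl3 was closest to Sorl1 (r = 0.997), Rela to Rnf215 (r = 0.997), Rel to Zbtb4 (r = 0.996), Relb to Ddx4 (r = 0.993), Nfkbie to Gm48065 (r = 0.995), Nfkbiz to Fbf1 (r = 0.993) and Nfkbia to Dhx8 (r = 0.994). Nfkb1 had the loosest match, with Khdc4 at r = 0.962 as the only gene at or above 0.95, whereas 613 genes reached 0.95 with Bcl3. Tnfaip3 was closest to Rps13-ps2 (r = 0.977), a pseudogene whose reads may belong to its parent gene, and to Plk2 (r = 0.976), and correlated negatively with each of the other 9 members (r from -0.844 to -0.697).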

How the data were processed

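Paired reads from poly(A)-selected libraries were trimmed, aligned to GRCm38 with STAR and assigned to genes with featureCounts 1.6.2 by the authors, who deposited read counts per gene and RPKM per gene and library. Per the study's methods no strand or pair option was set. Of counts between 1 and 19, 81.4% to 83.8% were even in each library, as happens when the mates of a pair are counted separately, so that a count is not a number of fragments. Reads in exons shared by 2 genes may be lost or shared. The deposited RPKM divide counts by exon length and by reads in the library. The submitters' processing notes name R 3.4.3 and edgeR 3.14.

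The members and the gene lists were chosen with earlier results of these data known. Named genes were all 10 members, the 2 called genes with the largest change in each list and comparison, and the genes most correlated with each member. Map3k14, Nfkbid, Ptgs2 and Ier3 were added after their values were seen.

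Here the deposited counts of 11950 genes (more than 1 CPM in at least 3 libraries) were fitted in edgeR 4.0.16 (R 4.3.3) with TMM factors and the quasi-likelihood test over all 9 libraries, and FDR was the Benjamini-Hochberg adjusted p. Scripts were tested on simulated data. Alternatives were edgeR's exact test, DESeq2 1.42.0, other scalings, filters and fold thresholds, the 2 groups alone, a replicate block and each library left out. Libraries with the same number deviated together from their group means (r from 0.276 to 0.484 in all 9 pairs, against -0.376 to 0.0423 for different numbers). The replicate block was therefore fitted as an alternative, although the labels do not say what a number stands for. The main fit and the exact permutation tests between groups did not pair the libraries. No libraries were identical (chi-square per gene at least 10.6). Gene names and positions came from GENCODE M21, which matched 53274 of 53465 identifiers, and promoter windows from RefSeq (GRCm38.p6). Log2 fold changes were computed here and not taken from the authors.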

Additional observations from a re-analysis of the deposited data

How the results depend on the processing

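Over the alternatives, 216 recomputed counts of called members and ratio differences kept their direction and, for counts, stayed within 1.5 times their value, and 6 did not. Recomputing RPKM from exon length, or averaging differences within replicate numbers, leaves a ratio difference unchanged by construction. Agreement in those cases could not have failed and is no sign of robustness. With 1 library left out, the count of higher members ranged from 6 to 8 in CO-CM against UNX (lowest without UNX replicate 2 or 3) and from 3 to 6 between the media, and was 8 throughout in PH-CM against UNX. A fold threshold of 2 in place of 1.2 left 4 members higher and 0 lower in PH-CM against UNX, 2 higher in CO-CM against UNX, and 0 higher and 0 lower in PH-CM against CO-CM. With 1 library left out, the count of members lower in PH-CM than in CO-CM ranged from 0 (without PH-CM replicate 1) to 1. Signs turned in results that were not called. Nfkb1 in CO-CM against UNX, at 0.00, went to -0.0671 with library size alone, -0.0365 with no filter, -0.0290 with edgeR's filterByExpr and between -0.0615 and 0.0650 with 1 library left out, and Rel in PH-CM against CO-CM ranged from -0.0134 (without CO-CM replicate 3) to 0.107. The causes were not tested. With the replicate block, 8 members were higher and 1 lower in PH-CM against UNX, 7 and 0 in CO-CM against UNX, and 5 and 1 in PH-CM against CO-CM. Pairing by replicate thus changed no call of a member other than Rela in CO-CM against UNX and Relb between the media. Over the scalings, the median log2 fold change of all genes lay between -0.0694 (library size alone) and 0.0659 (upper-quartile factors), both in CO-CM against UNX. Nfkbiz had the fewest reads of the members (365 in the library with fewest), and how far depth limits each member was not compared.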
